A study of Aptenodytes patagonicus with 7 samples.

Results

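Troponin is the calcium switch of the thin filament of striated muscle. It is built of 3 subunits: troponin C binds calcium, troponin I holds the filament in the off state at low calcium, and troponin T anchors the complex to tropomyosin. Each subunit is encoded by separate genes for different fibre types, so that the set of troponin transcripts in a muscle follows its fibre makeup and its stage of development. The genes considered here were the cardiac troponin T gene TNNT2, which is also transcribed in immature skeletal muscle, the fast troponin T gene TNNT3, the slow and fast troponin I genes TNNI1 and TNNI2, the troponin C gene TNNC1 of slow and cardiac muscle and the fast troponin C gene TNNC2. Probe sets were taken where the array annotation gave 1 of these symbols and no other, and this gave 8 probe sets of the 6 genes, among 36897 probe sets and 12920 genes with a single symbol in all.

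The values came from the pectoralis, which drives the wing downstroke, of wild juvenile king penguins. The NI group (never immersed) held 4 birds that had not yet been to sea but were about to go, 3 females and 1 male. The SA group (sea acclimated) held 3 birds already used to living at sea, 2 females and 1 male. Each bird was a separate animal with 1 biopsy and 1 array, and stage of life and time at sea cannot be told apart in this comparison.

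The arrays were made for the chicken, and each value is the log2 intensity of a single chicken probe chosen by the authors for each probe set. A chicken probe may also bind penguin transcripts of a related gene, and slow and fast troponins are related to each other. Differences are SA minus NI from limma, and a call needed a Benjamini-Hochberg adjusted p under 0.10, with the adjustment made across the whole array. In counts of probe sets or genes, lower and higher mean called in that direction. Between birds, Pearson's r over all probe sets was between 0.949 and 0.979 within the groups and between 0.941 and 0.974 across them. SA bird 1 lay apart from all other birds on the second principal component, which held 23.0% of the variance. Of 12 symbols listed as skeletal muscle fibre markers, 8 were measured and none differed past the threshold. Over all genes only 0.967% were lower and 0.580% were higher, so none among 8 says little. ACTA1, the skeletal actin, was the brightest probe set on every array. Quantile normalization gives the top rank the same value on each array, so ACTA1 could not differ between birds.

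Troponin probe sets differed unevenly between the groups. Directions follow the sample labels throughout. The study's text gives its counts of genes up and down after acclimation the other way round from those found here, whereas the signs of single probe sets in its table of genes chosen for quantitative PCR, the tropomyosin described further on among them, run as in these data. TNNT2, TNNI1 and TNNC2 were lower in SA by 3.30-fold, 3.15-fold and 1.92-fold, each in 1 probe set. TNNT2 and TNNC2 had no other probe set, while another of TNNI1 did not fall (log2 difference 0.07, limma adjusted p = 0.922). Thus 3 of the 8 probe sets were lower and 0 were higher. Over all probe sets 1.07% were called at this threshold, 0.650% lower and 0.417% higher. The members were chosen with earlier results of these data known, so the counts are a description and not a test. Without a threshold on p, all SA birds lay below all NI birds in 4 of the 8, these 3 and TNNI2, against 5.09% of all probe sets, and 10.3% of all probe sets had no overlap in either direction. The median difference of the 8 was -0.06, against 0.01 over all probe sets. Those that fell were neither all of the slow type nor all of the fast type, and TNNT3 and TNNC1 lay within 0.04 of no difference. TNNT3, TNNI2 and TNNC1 ranked between 6 and 70 on the arrays, where quantile normalization can hide a change of transcript. Their small differences thus do not show that these transcripts held steady. Biopsies mix cells, and a loss of fibres that carry a troponin cannot be told apart from less of its RNA in each fibre.

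**Figure D1:**
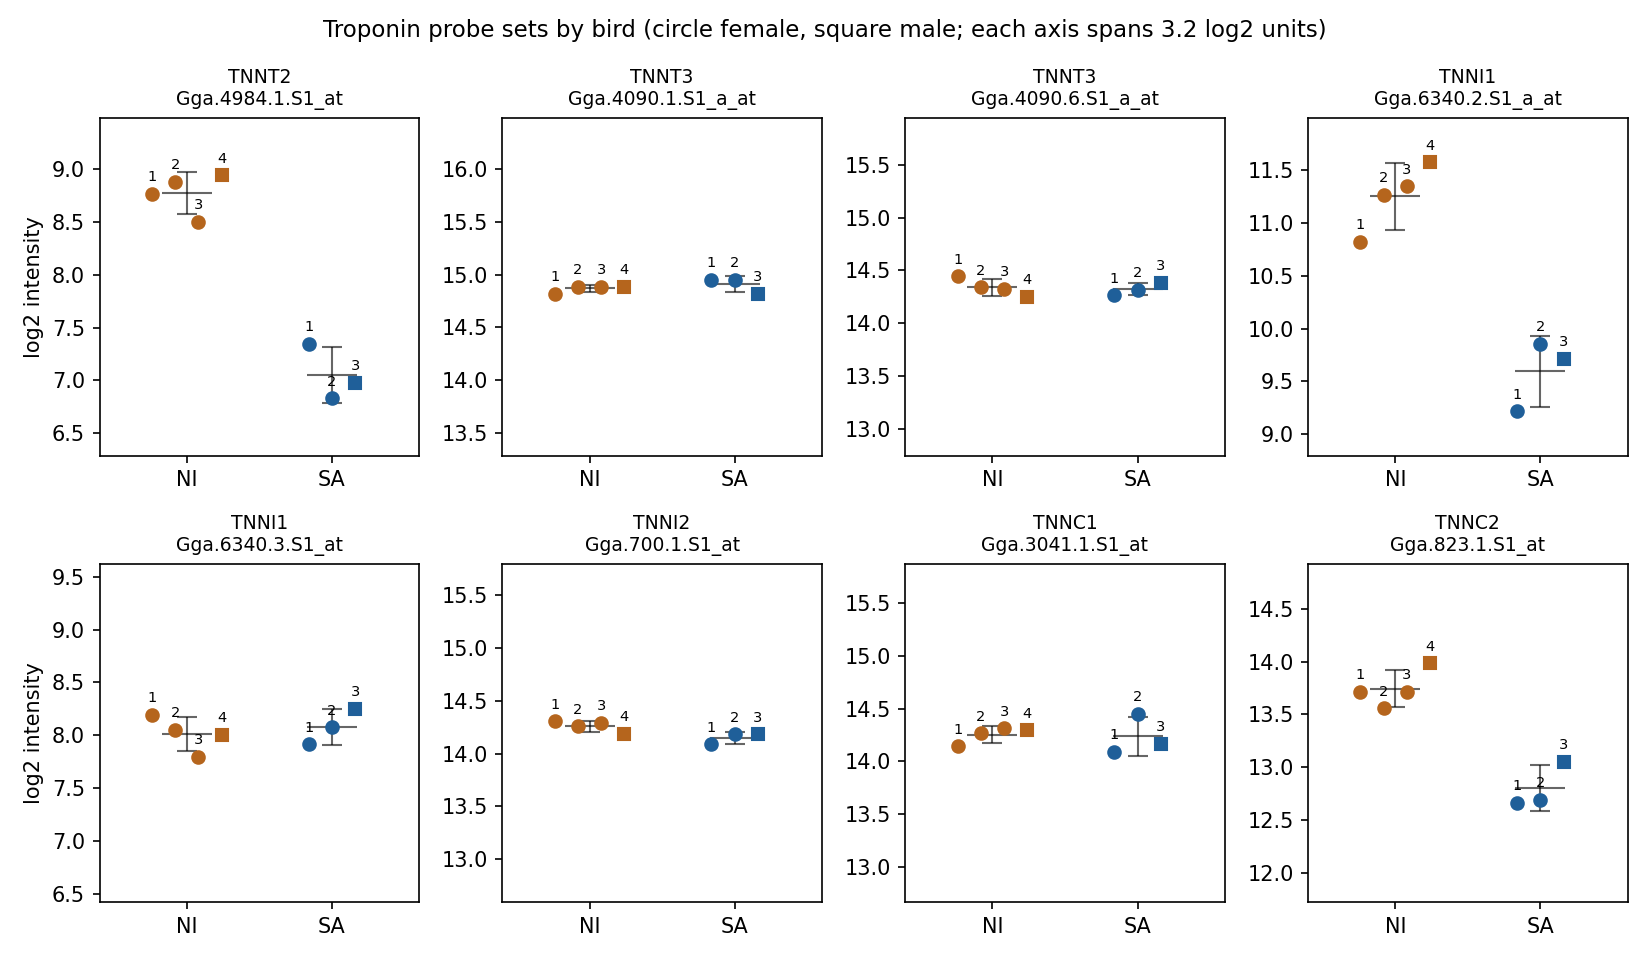
Log2 intensity (vertical axis) of the 8 troponin probe sets in the 4 NI and 3 SA birds, numbered as in the sample labels, with circles for females, squares for males and bars for the mean and SD of each group. NI and SA birds are separated by more than 0.5 in TNNT2, TNNI1 (Gga.6340.2.S1_a_at) and TNNC2, and by less than 0.01 or not at all in the other 5.

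Troponin T was measured through the cardiac gene TNNT2 and the fast gene TNNT3. The log2 intensity of TNNT2 (Gga.4984.1.S1_at) was 8.77, 8.88, 8.50 and 8.94 in NI birds 1 to 4, and 7.34, 6.83 and 6.98 in SA birds 1 to 3. The lowest NI bird stood 1.16 above the highest SA bird, a gap larger than the whole spread within either group. The group means were 8.77 ± 0.194 (SD, n = 4) and 7.05 ± 0.264 (SD, n = 3), a difference of -1.72 with a standard error of 0.16 (limma adjusted p = 0.00785). It was the probe set with the 6th smallest p of all, and 32 of the 240 called falls were larger. In NI birds its signal stood between the 47.4th and the 60.2nd percentile of the array, and in SA birds between the 2.03rd and the 11.02nd. The lowest value in the whole table was 6.44, so the SA birds were close to the floor of the scale. Whether background was subtracted from these values is not given in the sources used here.

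TNNT3, the troponin T of fast fibres, had a pair of probe sets, both of the kind that matches several transcript forms of 1 gene. In Gga.4090.1.S1_a_at the log2 intensity was 14.82, 14.88, 14.88 and 14.88 in NI birds 1 to 4 and 14.95, 14.95 and 14.82 in SA birds 1 to 3. It held between rank 6 and rank 8 on every array, and its 7 values took 3 distinct levels, because quantile normalization gives the same value to the same rank. The difference was 0.04 (95% interval -0.19 to 0.27, limma adjusted p = 0.947). In Gga.4090.6.S1_a_at the values ran from 14.25 to 14.44 in NI and from 14.27 to 14.38 in SA. The groups overlapped there as well, with a difference of -0.02 (95% interval -0.25 to 0.22, limma adjusted p = 0.98).

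Troponin I was measured through the slow gene TNNI1 and the fast gene TNNI2. The brighter probe set of TNNI1, Gga.6340.2.S1_a_at, had log2 intensities of 10.82, 11.27, 11.35 and 11.57 in NI birds 1 to 4, and 9.22, 9.86 and 9.71 in SA birds 1 to 3. Every SA bird was lower than every NI bird, with 0.96 between the nearest birds of the groups. The means were 11.3 ± 0.316 (SD, n = 4) and 9.60 ± 0.335 (SD, n = 3), and the difference was -1.65 with a standard error of 0.21 (limma adjusted p = 0.0174). The SA birds stood between the 67.1st and the 79.4th percentile of their arrays, well off the floor of the scale, and the NI birds between the 90.6th and the 95.4th. Within SA, bird 1 was the lowest for TNNI1 and the highest for TNNT2, so these genes did not rank the SA birds alike.

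The other probe set of TNNI1, Gga.6340.3.S1_at, did not share this fall. Its log2 intensity was 8.19, 8.05, 7.80 and 8.004 in NI birds 1 to 4 and 7.91, 8.08 and 8.25 in SA birds 1 to 3. These birds overlapped, and the difference was 0.07 (95% interval -0.23 to 0.37, limma adjusted p = 0.922). That interval lies wholly above the interval of the brighter probe set, -2.12 to -1.19. Its mean signal was at the 31.7th percentile of all probe sets, against the 88.4th for the brighter one. The fall of slow troponin I thus rests on 1 of its 2 probe sets, and which of them follows the penguin transcript was not tested.

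TNNI2, the troponin I of fast fibres, had log2 intensities of 14.31, 14.26, 14.29 and 14.19 in NI birds 1 to 4 and 14.09, 14.18 and 14.18 in SA birds 1 to 3. All SA birds were below all NI birds, but by less than 0.01 at the nearest point. The difference was -0.11 (95% interval -0.34 to 0.12, limma adjusted p = 0.798). The exact permutation p, two-sided and from 35 ways of splitting the birds, was 0.0571, where 0.0286 is the smallest possible.

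Troponin C, the calcium sensor, was the subunit in which the fast gene changed and the slow and cardiac gene did not pass the test. TNNC2, the fast gene, had log2 intensities of 13.71, 13.56, 13.71 and 13.98 in NI birds 1 to 4 and 12.67, 12.69 and 13.05 in SA birds 1 to 3. The groups were 0.51 apart at their nearest birds, and the male was the highest bird in each group. The means were 13.7 ± 0.177 (SD, n = 4) and 12.8 ± 0.215 (SD, n = 3), a difference of -0.94 with a standard error of 0.14 (limma adjusted p = 0.0341). This probe set (Gga.823.1.S1_at) was among the 200 brightest, of which 3, itself included, were lower and 1 was higher at the same threshold. Over all probe sets 0.650% were lower and 0.417% were higher. TNNC2 did not pass without SA bird 2 (log2 difference -0.88, limma adjusted p = 0.112).

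TNNC1 encodes the troponin C that slow skeletal fibres share with the heart. Its log2 intensity (Gga.3041.1.S1_at) was 14.14, 14.27, 14.31 and 14.30 in NI birds 1 to 4 and 14.09, 14.45 and 14.17 in SA birds 1 to 3. SA birds 1 and 2 were the lowest and the highest of all 7, so the SA range enclosed that of NI. The difference was -0.02 (95% interval -0.29 to 0.26, limma adjusted p = 0.983). It ranked between 26 and 69 on the arrays, where a change of transcript can show only as a change of rank among the brightest probes.

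**Figure D2:**
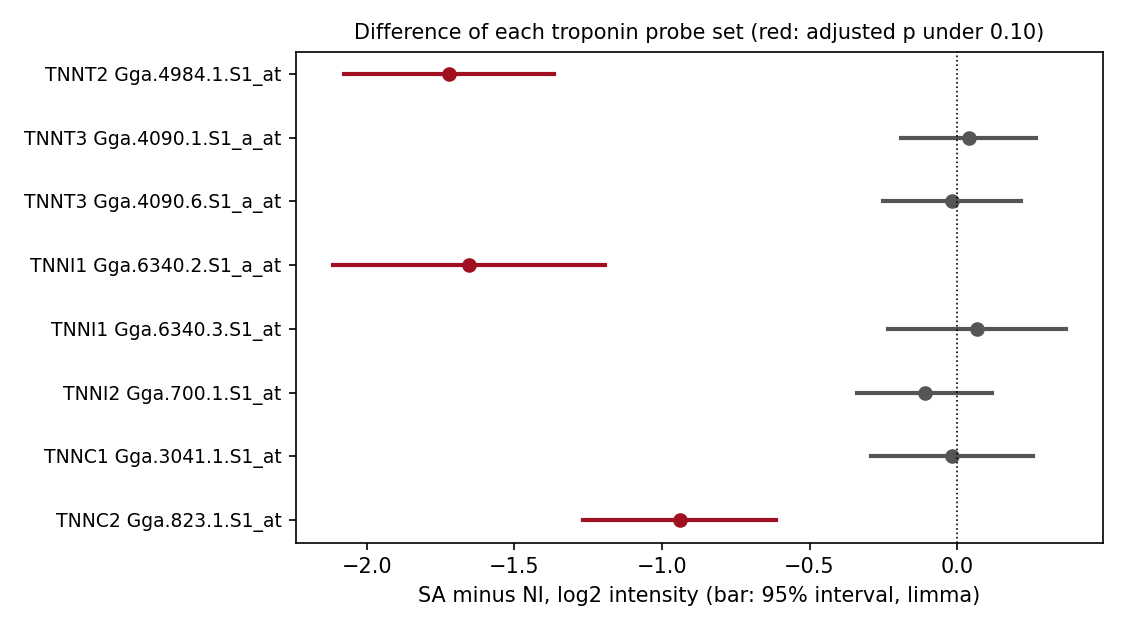
SA minus NI difference in log2 intensity (horizontal axis) of each troponin probe set, with dots for the limma estimate from 4 NI and 3 SA birds and bars for its 95% interval. The intervals of TNNT2 (-2.08 to -1.37), TNNI1 Gga.6340.2.S1_a_at (-2.12 to -1.19) and TNNC2 (-1.27 to -0.61) lie below 0, and those of the other 5 probe sets include 0.

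Without SA bird 1, which lay apart on the second principal component, the differences were -1.87 for TNNT2, -1.47 for TNNI1 (Gga.6340.2.S1_a_at) and -0.87 for TNNC2, and all 3 kept their call. The 3 falls were seen in both sexes. Between the females the differences were -1.63 for TNNT2, -1.61 for TNNI1 (Gga.6340.2.S1_a_at) and -0.98 for TNNC2, and between the single male of each group they were -1.97, -1.86 and -0.93. In a fit on the females alone only TNNT2 stayed past the threshold (limma adjusted p = 0.0707), while TNNI1 and TNNC2 had adjusted p-values of 0.116 and 0.104 from limma. The exact two-sided permutation p from all 7 birds was 0.0286 for each of the 3, the smallest that 4 against 3 birds allow.

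The slow or cardiac isoform minus the fast isoform on the same array moved in opposite ways in different subunits. Levels of different probes are not comparable, so only the change of these differences between birds carries meaning, and no test was made. TNNI1 minus TNNI2, by the brightest probe set of each, was -3.48, -2.99, -2.94 and -2.61 in NI birds 1 to 4 and -4.87, -4.32 and -4.47 in SA birds 1 to 3. The SA birds were lower throughout, with a difference of -1.54 between the group means. TNNT2 minus TNNT3 was between -6.38 and -5.94 in NI and between -8.12 and -7.61 in SA, with a difference of -1.76 between the means. TNNC1 minus TNNC2 was 0.43, 0.71, 0.60 and 0.31 in NI birds 1 to 4 and 1.43, 1.76 and 1.12 in SA birds 1 to 3. Here the SA birds were higher throughout, with a difference of 0.92 between the means. TNNC1 itself differed by -0.02 and TNNC2 by -0.94. The isoform differences thus mostly restate the falls of TNNI1, TNNT2 and TNNC2 given above. With the mean of both probe sets of TNNI1 in place of the brighter one, the difference for troponin I was -0.68.

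**Figure D3:**
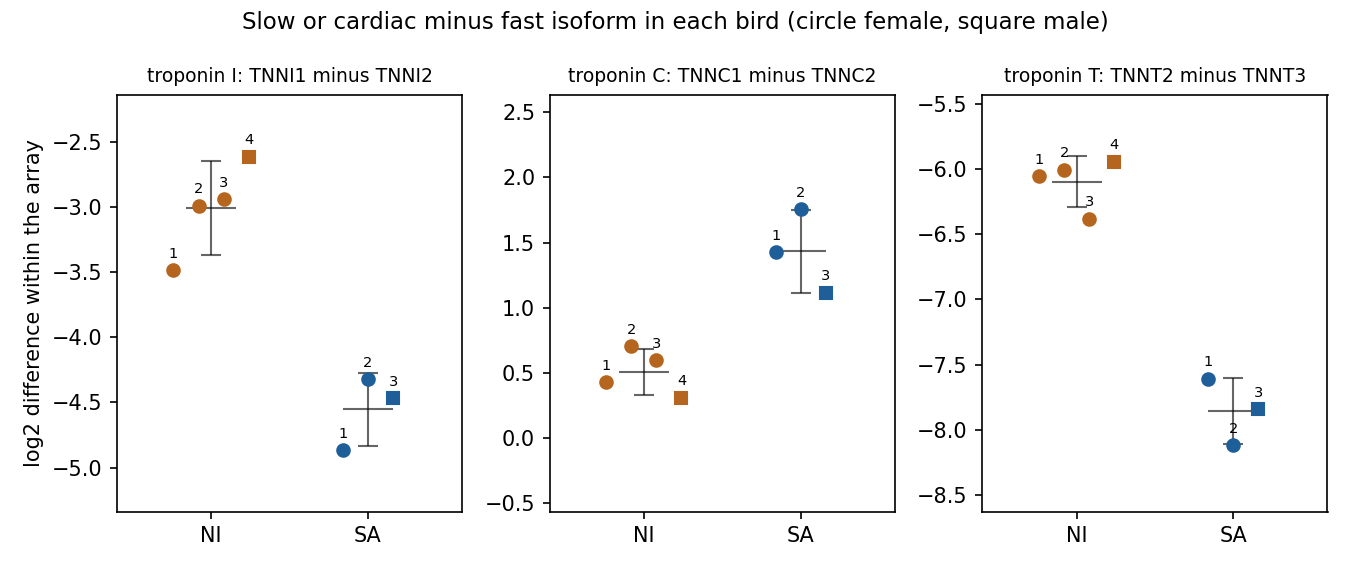
Log2 intensity of the slow or cardiac isoform minus that of the fast isoform in each bird (vertical axis), by the brightest probe set of each gene, with bars for the mean and SD of the 4 NI and 3 SA birds. SA birds lie below NI birds for troponin I and troponin T and above them for troponin C, with no overlap in any of the 3 panels.

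Genes that work beside troponin were described through the brightest probe set of each gene, over which 0.967% of 12920 genes were lower and 0.580% were higher. Of 26 other thin filament genes 22 were measured, and 1 was lower and none higher, with a median difference of -0.13. The one that passed was the tropomyosin TPM2, the protein to which troponin T binds, with a difference of -2.52 (limma adjusted p = 0.0412). The study's primer table gives the same probe set the name TPM3. TPM2 was 13.30, 13.30, 13.26 and 13.72 in NI birds 1 to 4 and 10.20, 10.26 and 12.17 in SA birds 1 to 3, so SA bird 3, the male, stood apart from the other SA birds. LMOD2, a leiomodin that nucleates actin at the filament's pointed end, lay at -1.75 and missed the threshold narrowly (limma adjusted p = 0.104). TPM3 at -0.62 and the cardiac actin ACTC1 at -0.38 did not pass. Nebulin (NEB), the ruler of the thin filament, lay at 0.07, and TNNT1 and TNNI3, the remaining troponins of the list, had no probe set of that single symbol.

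Among slow and cardiac isoforms other than troponins, 3 of 22 measured genes were lower and none was higher, and the median difference was -0.23. Over all genes 0.967% were lower and 0.580% were higher. Lower in this list was FHL1, a LIM-domain protein of muscle (-1.86, limma adjusted p = 0.00268). CASQ2, the calcium-binding protein of the slow and cardiac reticulum, was lower too (-1.32, limma adjusted p = 0.0329). So was MYOZ2, a Z-disc protein that binds calcineurin (-1.59, limma adjusted p = 0.0536). The heart-type fatty acid binding protein FABP3 lay at -1.13 and did not pass (limma adjusted p = 0.108). Nor did the slow and cardiac calcium pump ATP2A2 at -0.93 (limma adjusted p = 0.236). Myoglobin (MB) at 0.03 and the slow myosin binding protein MYBPC1 at -0.0015 did not pass. MB had log2 intensities from 14.53 to 14.61, among the brightest, where small changes can be hidden. Of the 22 genes 17 had a negative difference, as had 49.4% of all genes. MB and MYBPC1 were chosen after their values were seen.

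Of 24 symbols listed for fast isoforms other than troponins, only 13 had a probe set, and the count is of symbols and not of penguin genes. None of these 13 passed in either direction, with a median difference of -0.14 and a range from -0.76 to 0.09. Over all genes 0.967% were lower and 0.580% were higher. The fast myosin light chain MYL1 lay at -0.07, the other light chain of fast myosin, MYLPF, at -0.36, and the fast tropomyosin TPM1 at -0.21. GPD1, an enzyme of the glycerol phosphate shuttle, had the largest difference of the list, -0.76 (limma adjusted p = 0.149). The next smallest p belonged to MYH1B at -0.27 (limma adjusted p = 0.518). The range of the list did not reach the -0.94 of TNNC2.

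**Figure D4:**
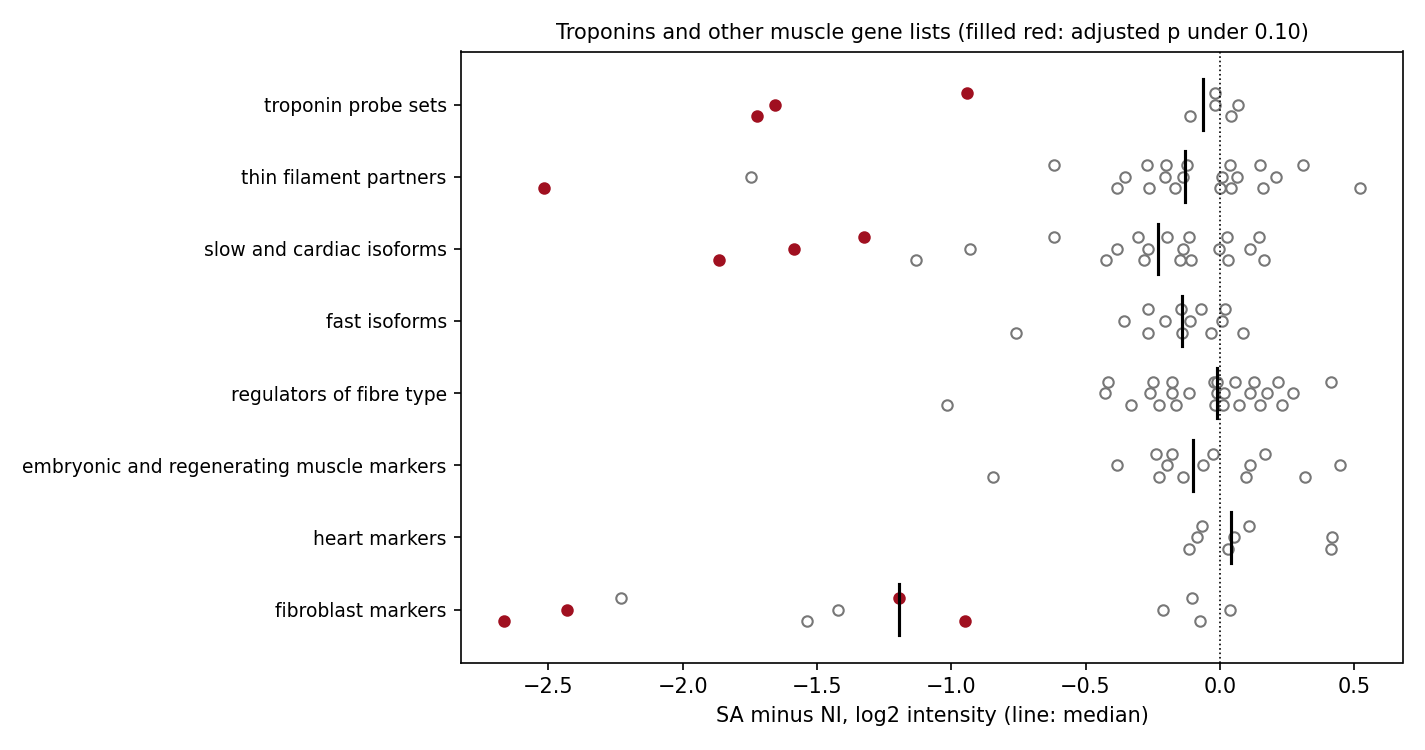
SA minus NI difference in log2 intensity (horizontal axis) of the 8 troponin probe sets and of the genes of 7 other lists, each gene by its brightest probe set, with a line at the median of the list. Filled points passed an adjusted p of 0.10 from limma: 3 troponin probe sets, 1 thin filament gene, 3 slow and cardiac isoforms and 4 fibroblast markers, all lower in SA.

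Regulators of troponin genes or of fibre type were tested as transcripts. The list held the TEAD factors that bind M-CAT sites such as those of the chicken TNNT2 promoter, MEF2 and NFAT factors with calcineurin, and other factors of fibre type, and 27 of its 32 genes were measured. None passed in either direction, where 0.967% of all genes were lower and 0.580% were higher, so none among 27 says little. The median difference was -0.01. The smallest p belonged to EYA1, a cofactor of homeodomain factors of muscle, at -0.43 (limma adjusted p = 0.245), followed by PPARGC1A, a coactivator of slow fibre and mitochondrial genes, at -1.02 (limma adjusted p = 0.255). Next by p were the calcineurin subunit PPP3R1 at -0.41 (limma adjusted p = 0.359) and MEF2C at -0.33. TEAD1 at 0.02, TEAD4 at -0.16, NFATC1 at -0.18 and another calcineurin subunit, PPP3CA, at 0.27 did not pass. Nor did any of 14 measured markers of embryonic and regenerating muscle, against the same shares of all genes, with a median of -0.10. The smallest p-values of that list belonged to VIM at -0.85, ACTC1 at -0.38, NES at 0.45 and PAX3 at 0.32. Myogenin (MYOG) lay at -0.23, MYOD1 at -0.20 and the embryonic light chain MYL4 at 0.11.

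Markers of other cells moved with the groups in part. Of 11 fibroblast markers 4 were lower (COL1A2, FN1, COL6A3 and COL1A1), none was higher and 10 had a negative difference, with a median of -1.19. Their mean log2 intensity was between 9.79 and 10.38 in NI birds and between 8.53 and 9.38 in SA birds. The transferrin receptor TFRC was lower among 4 measured erythroid markers (list mean 12.60 to 13.47 in NI and 12.31 to 12.99 in SA), and the myelin gene MBP among 6 nerve and Schwann markers (9.69 to 9.73 in NI and 9.41 to 9.43 in SA). RBP7 was higher among 7 adipocyte markers (9.44 to 9.57 in NI and 9.56 to 9.69 in SA). TFRC, MBP and RBP7 were each the only call of their list, with list medians of -0.06, 0.02 and 0.02 in that order. In these lists 3 of 4, 2 of 6 and 3 of 7 genes had a negative difference, as had 49.4% of all genes. No marker passed among 8 measured for the heart, 4 for smooth muscle, 7 for endothelium and 7 for leukocytes, and the list means of NI and SA birds overlapped in each of these. With 0.967% of all genes lower and 0.580% higher, lists of this size would seldom hold a call. The part of these cells in the falls of TNNT2, TNNI1 and TNNC2 was not tested.

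The genes most like each fallen troponin were sought by Pearson's r over the 7 birds among 5511 probe sets with an SD of at least 0.3. Such an r mostly reflects the difference between the groups and is given as a description. For TNNT2 the most similar were EXOC4 (r = 0.990), the ribosomal protein gene RPL3 (0.988) and LYRM1 (0.988), and 59 candidates had an r over 0.95. For TNNI1 they were SDCBP2 (r = 0.978), CYP3A5 (0.974) and PIK3C2B (0.970), with 16 candidates over 0.95. For TNNC2 they were the matrix proteoglycan gene VCAN (r = 0.978), the collagen gene COL1A2 (0.974) and SEPTIN11 (0.973), with 21 candidates over 0.95. No gene stood among the first 3 of more than 1 of these troponins.

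**Figure D5:**
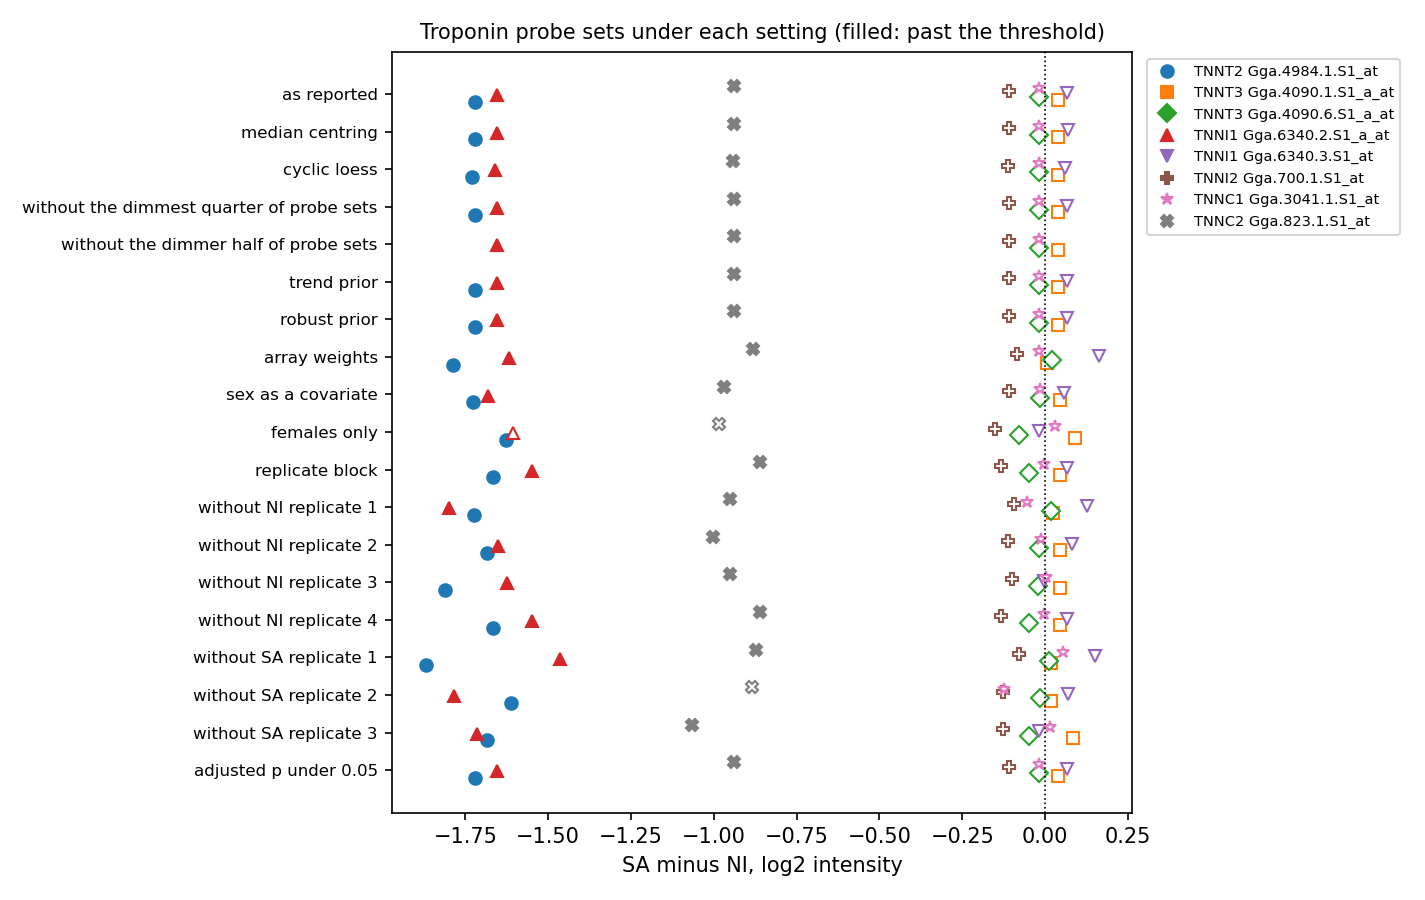
SA minus NI difference in log2 intensity (horizontal axis) of each troponin probe set as reported and under 18 other settings of the analysis (vertical axis), with filled symbols where it passed the threshold of that setting. TNNT2 passed in each of the 17 settings that kept it, TNNI1 Gga.6340.2.S1_a_at in 17 of 18 and TNNC2 in 16 of 18, and the other 5 probe sets passed in none. The settings reuse the same birds and are not independent tests.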

How the data were processed

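Pectoralis RNA of 4 NI and 3 SA king penguins was measured on chicken arrays, 1 array per bird. The log2 values deposited by the authors are intensities of perfect-match probes kept where 1 or more arrays exceeded background, with the probe of the highest rank sum taken for each probe set, quantile normalized between arrays. No background subtraction is described, and the submitters' notes name limma without a version. Quantile normalization ties the brightest probe sets to their rank, so that small changes there can be hidden.

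SA minus NI was fitted with limma 3.58.1 in R 4.3.3 (lmFit and eBayes, 5 residual degrees of freedom, prior 4.34) over all 36897 probe sets, with none filtered out. The same fit was run on data simulated with normal noise from its own variance estimates, which cannot show whether its assumptions hold here. Groups and sexes came from the sample labels. Symbols came from the array annotation, in which 26108 probe sets carry 1 symbol, 171 several and 10618 none. All probe sets of the 6 genes were named, as were called members of each list. Up to 4 others with the smallest p were named in the lists of thin filament, slow, fast, regulator and embryonic genes. NEB, MB, MYBPC1, MYL1, TEAD1, TEAD4, NFATC1, PPP3CA, MYOG, MYOD1 and MYL4 were chosen after their values were seen. The members and lists were chosen with earlier results of these data known. Precision is limited by the 7 arrays. Alternatives were median centring, cyclic loess, filters on dim probe sets, other priors, array weights, sex as a covariate, females alone, a replicate block, each bird left out and a stricter threshold. Scanner files and probe sequences were not used here.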

Additional observations from a re-analysis of the deposited data

Results flagged for a closer look

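Among the 8 troponin probe sets and the 3 differences between isoforms, 1 value in the NI group stood apart from the other NI birds by Dixon's ratio at the 95% level, a level at which chance alone marks about 1 in 20 groups. NI bird 1 had a log2 intensity of 14.82 in the TNNT3 probe set Gga.4090.1.S1_a_at, where the other NI birds were all at 14.88. These values are the quantiles of rank 8 and rank 7 on the arrays, so the gap is a single rank. Groups of 3, such as SA, were not tested.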

How the results depend on the processing

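Of 18 alternatives, 7 left out 1 bird each. The filters on dim probe sets, the other priors and the stricter threshold cannot change a difference and bear only on the call. With 1 bird left out, the log2 difference ranged from -1.87 to -1.61 for TNNT2, from -1.80 to -1.47 for TNNI1 Gga.6340.2.S1_a_at, from -1.06 to -0.86 for TNNC2, from 0.02 to 0.08 and from -0.0478 to 0.0165 for TNNT3 Gga.4090.1.S1_a_at and Gga.4090.6.S1_a_at, from -0.0170 to 0.15 for TNNI1 Gga.6340.3.S1_at, from -0.13 to -0.08 for TNNI2 and from -0.12 to 0.0549 for TNNC1. TNNT2 kept its call in all 17 settings that kept its probe set, and the filter that kept only the brighter 18448 probe sets removed it and TNNI1 Gga.6340.3.S1_at. TNNC2 lost its call without SA bird 2 (-0.88, limma adjusted p = 0.112), and the number of troponin probe sets lower in SA was between 2 and 3 with 1 bird left out. With females alone, which leaves fewer birds, TNNI1 (-1.61, limma adjusted p = 0.116) and TNNC2 (-0.98, limma adjusted p = 0.104) lost theirs and the number was 1. TNNI1 Gga.6340.3.S1_at and TNNC1 turned sign there (-0.0197 and 0.0303), as did TNNT3 Gga.4090.6.S1_a_at with array weights (0.0203), none near the threshold. No troponin probe set was called higher in SA in any of the 18.

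The number of all called probe sets, 394, was 766 with array weights, 66 with females alone, 175 at a threshold of 0.05, 624 with the replicate block and between 95 and 487 with 1 bird left out (with NI bird 1, 2 or 4 left out 157, 95 or 243, and with SA bird 2 or 3 left out 180 or 139). The cause was not tested. Nothing in the labels pairs birds of the same number. The correlations of their deviations from the group means were 0.292, -0.03 and 0.173. Between birds of different numbers such correlations were between -0.366 and 0.315. With so few birds these cannot decide whether a pairing existed. With the replicate block the differences were -1.67 for TNNT2, -1.55 for TNNI1 Gga.6340.2.S1_a_at and -0.86 for TNNC2, and all 3 kept their call. No SA bird has the number 4, so NI bird 4 adds nothing there and these differences equal those with that bird left out. With the mean of both TNNI1 probe sets, TNNI1 minus TNNI2 differed by -0.68 in place of -1.54. With 1 bird left out the differences between isoforms ranged from -1.70 to -1.39 for TNNI1 minus TNNI2, from 0.76 to 1.08 for TNNC1 minus TNNC2 and from -1.89 to -1.63 for TNNT2 minus TNNT3. The median of all probe sets moved by at most 0.02 between settings.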

Other observations

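In the RefSeq annotation of the king penguin assembly bAptPat1.pri.cur, TNNT2 and TNNI1 are next neighbours but for LAD1, and TNNT3 and TNNI2 lie close together with PRR33 and LSP1 between them, whereas TNNC1 and TNNC2 stand alone. The 3 protein-coding genes on each side of these loci and the genes between them, a set chosen after the troponin values were seen, held 27 genes, of which 20 were measured. Of these, 0 were lower and 2 were higher in SA, while 0.967% and 0.580% of all genes were. IGFN1, an immunoglobulin-domain protein of striated muscle near TNNT2, was higher by 1.57 (limma adjusted p = 0.0547). The lysosomal protease gene CTSD near TNNI2 was higher by 0.63 (limma adjusted p = 0.04). LAD1, between TNNT2 and TNNI1, lay at 0.14 and did not pass (limma adjusted p = 0.725). Both neighbouring pairs hold a troponin I and a troponin T gene. In the first pair TNNT2 was lower and TNNI1 was lower in 1 of its 2 probe sets, while in the second neither gene passed the test.

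Among the troponins that did not pass the test, the genes with the most similar values over the 7 birds were SDCCAG8 (r = 0.963), COL5A1 (0.960) and PLEKHA8 (0.959) for TNNI2, GFPT1 (r = 0.956), EIF6 (0.951) and DEPDC5 (0.940) for TNNC1, and NUMB (r = 0.947), PCBD2 (0.946) and MAP3K4 (0.932) for the brighter probe set of TNNT3. An r over 0.95 was reached by 6, 2 and 0 candidates. The SD of these troponins over the 7 birds was 0.0763, 0.122 and 0.0543, so the likeness rests on small differences.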
